A study of Mus musculus with 8 samples.

Results

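The translation initiation and elongation factors are the proteins that load a ribosome onto an mRNA, find the start codon and move the ribosome along the message. They were followed here through the 48 genes, of 17097 measured, whose symbol begins with Eif1 to Eif6 or with Eef1 or Eef2, leaving out the Eif2ak kinase genes. Each gene was read from a probe set annotated to that gene alone, and where there were several such sets, from the one with the highest mean over the 8 samples. A further 12 probe sets that name a factor together with another gene were not used.

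Initiation starts when eIF2, loaded with GTP and the initiator tRNA, joins the small ribosomal subunit with eIF1, eIF1A, eIF3 and eIF5, while the eIF4 factors bind the mRNA cap and unwind the leader. eIF2B recharges eIF2 with GTP, and kinases of the integrated stress response slow initiation by blocking that step. During elongation eEF1A brings the aminoacyl-tRNA and eEF2 moves the ribosome, and many of these factors are encoded by TOP mRNAs, messages that begin with a run of pyrimidines and whose translation is set together with that of ribosomal proteins by mTORC1. In fibroblasts, the collagen-producing cells of the dermis, this machinery supplies the synthesis of secreted matrix.

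Gene expression was measured on arrays in dermal fibroblasts of 8 mice, 1 array for each animal. In the GW9662 group, 4 mice received 150 nmol of GW9662, a compound that binds the fat-cell regulator PPARG covalently and blocks it, in 300 µl acetone on the back skin, 3 times per week for 6 months from 12 months of age. The vehicle group was 4 mice of the same age that received 300 µl acetone alone on the same schedule, so both groups received the solvent. The fibroblasts were sorted as Pdgfra-positive, CD34-positive cells without CD45, CD117, CD24, CD31 and EpCam, after the subdermis had been removed, and RNA of 5000 cells was amplified over 21 cycles. Animals with the same number, 1 to 4, were taken on the same day. Strain and sex are not given in the sources used here. The comparison asks whether long-term PPARG inhibition on the skin changed the transcripts of the translation machinery.

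The values are log2 signals, with sample medians between 4.63 and 4.69. Because fibroblasts were measured in bulk, fewer cells of a type and less RNA per cell cannot be told apart. Signals of Cd34, a gene of the sort, lay between 10.49 and 10.81, whereas Pdgfra, the other, lay between 4.63 and 5.13, at percentile 43.8 of all genes by signal. Genes of markers sorted against read 2.81 to 3.01 for Ptprc, 3.05 to 3.19 for Kit, 3.73 to 4.07 for Epcam and 4.63 to 5.27 for Pecam1. Other genes of leukocytes and endothelial cells were not all low. Cd68 read 7.92 to 8.54, Cd79a 6.70 to 7.29 and Kdr 6.72 to 8.58, whereas Adgre1 read 3.27 to 3.44 and Cdh5 3.97 to 4.16. Vehicle 4 stood apart from the other samples, at 22.2 on a first principal component that held 28.2% of the variance, against -10.4 to 5.49. The Y-linked factor gene Eif2s3y read 2.98 to 3.18, and Xist, the RNA of the inactive X chromosome, read 9.85 to 10.06 in all 8 animals.

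No translation factor passed the test between GW9662 and vehicle, and none separated the animals of the groups in the probe set used. In limma, the adjusted p was under 0.05 for 0 of the 48 factors (background 0.0% of all genes), and 0 had an unadjusted p under 0.05 (background 3.38%). With the replicate number as a block, 0 of 48 had an unadjusted p under 0.05 as well (background 4.83%). In the probe sets used, the groups overlapped in every one of the 48 genes, while 1.75% of all genes had groups that did not overlap. By sign alone, 26 factors were lower, 21 were higher and 1 was equal after GW9662, where 51.8% of all genes were lower. The median log2 fold change was -0.0088 for the factors and -0.005 for all genes. Lower values in 4 of 4 same-day pairs were found in 5 factors (background 5.93%), and higher values in 4 of 4 pairs in 3 factors (background 5.46%). The latter include Eif2s3y, whose low signal is not shown to be above background.

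The log2 fold changes of the factors spanned -0.16 (Eif3i) to 0.18 (Eif1ax). All 48 of the 95% intervals included 0. Of these intervals, 47 lay wholly within 0.5 of 0 on the log2 scale, and 25 within 0.25. Interval half-widths ran from 0.12 to 0.41. The lowest bound was -0.49, for Eif3f, and the highest was 0.52, for Eif1ad. The number of animals limits this precision.

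**Figure D1:**
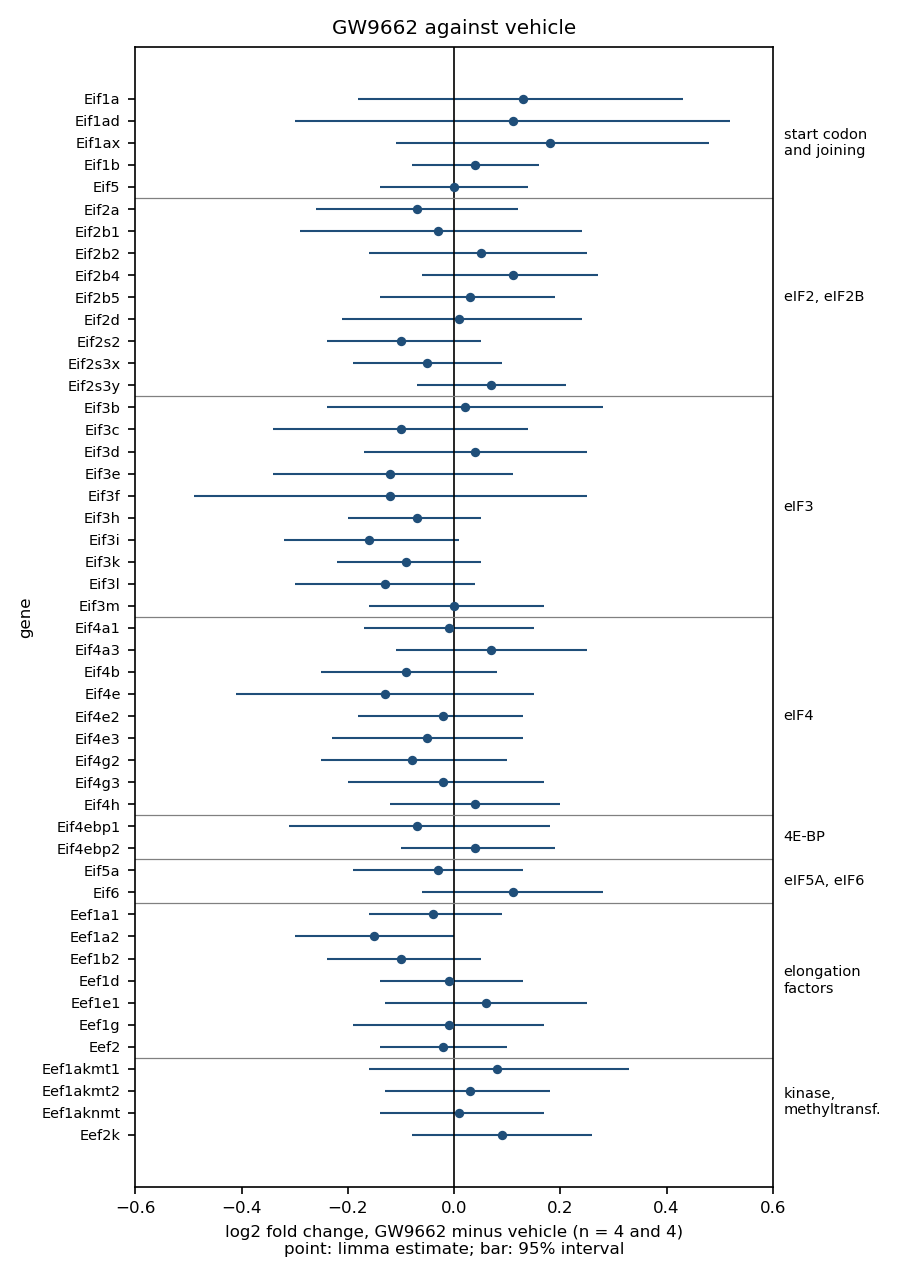
Log2 fold change of each of the 48 factor genes, GW9662 minus vehicle (n = 4 and 4), on the horizontal axis, with genes grouped by role on the vertical axis; points are limma estimates and bars are 95% intervals. All 48 bars include 0, and the estimates run from -0.16 to 0.18.

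Among the factors of start codon selection and subunit joining, 5 of 7 listed genes were measured, 4 were higher and 1 was equal after GW9662, with a median log2 fold change of 0.11. That value rested on vehicle 4: without it 2 of the 5 were higher, 3 were lower and the median was -0.00083, and with array weights the median was 0.027. Eif1ax, which encodes the X-linked form of eIF1A, a factor that steadies the scanning ribosome, read 7.94, 8.02, 7.71 and 7.80 in GW9662 animals 1 to 4 and 7.80, 7.89, 7.79 and 7.25 in vehicle animals 1 to 4. In this probe set the groups overlapped, and the one low value belonged to vehicle 4. Its log2 fold change was 0.18 ± 0.13 (SE, n = 4 per group; limma unadjusted p = 0.198, adjusted p = 0.997), and without vehicle 4 it was 0.04. The second, dimmer Eif1ax set read 4.98, 4.88, 4.94 and 4.89 after GW9662 and 4.81, 4.42, 4.87 and 4.36 in vehicle. There the groups did not overlap, and vehicle 2 and vehicle 4 were both low. Eif1ad, which encodes a protein with an eIF1A-like domain, read 5.72, 5.90, 5.77 and 5.91 after GW9662 and 5.88, 6.12, 5.78 and 5.07 in vehicle. Here too vehicle 4 was the lowest of all 8, and the log2 fold change of 0.11 ± 0.18 turned to -0.10 without it. Eif1a was likewise lowest in vehicle 4, at 6.52 against 6.83 to 7.24 in the other animals. Eif5, the GTPase activator of eIF2, read 9.59, 9.62, 9.46 and 9.66 after GW9662 and 9.63, 9.51, 9.62 and 9.57 in vehicle. Its group means were both 9.58, and no animal stood out.

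Of eIF2, which carries the initiator tRNA, and its exchange factor eIF2B, 7 of 9 subunit genes were measured, with 3 lower, 4 higher and a median log2 fold change of 0.028. Their list also holds Eif2a (-0.07) and Eif2d (0.01), which encode separate proteins that are not subunits of either complex, and with these 4 of 9 were lower and the median was 0.012. The sign of the subunit median rested on dim genes and on single animals. It was -0.028 without vehicle 3, with 4 lower and 3 higher. In the fit with the replicate block it was -0.023 without pair 3, with 5 lower and 2 higher. Among genes brighter than the median, without Eif2b5 and Eif2s3y, 3 of 5 subunit genes were lower, 2 were higher and the median was -0.028. Eif2s3x, the X-linked gamma subunit of eIF2, read 8.81, 8.72, 8.70 and 8.77 after GW9662 and 8.78, 8.71, 8.83 and 8.88 in vehicle, and the groups lay over each other. Eif2b4, the delta subunit of eIF2B, read 6.79, 6.88, 6.75 and 6.81 after GW9662 and 6.60, 6.83, 6.58 and 6.79 in vehicle. Vehicle 1 and vehicle 3 were the low animals. GW9662 was higher in 4 of 4 pairs, with a log2 fold change of 0.11 ± 0.07 (SE; limma unadjusted p = 0.176, adjusted p = 0.997). Eif2b5, the catalytic epsilon subunit, read 3.44, 3.36, 3.40 and 3.37 after GW9662 and 3.36, 3.54, 3.20 and 3.36 in vehicle. Its extremes were both vehicle animals, its log2 fold change was 0.03 ± 0.08, and so low a signal is not shown to be above background. The log2 fold changes of the other subunits ran from -0.10 for Eif2s2, the beta subunit of eIF2, to 0.07 for Eif2s3y. The low signal of Eif2s3y is not shown to be above background either.

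The eIF3 complex, the scaffold that links the small subunit to the mRNA, was measured through 10 of 14 listed subunits, and 7 were lower and 3 higher, with a median of -0.091, or -0.037 without GW9662 1. Eif3i, a core subunit, read 8.98, 9.25, 9.14 and 9.26 after GW9662 and 9.38, 9.30, 9.33 and 9.25 in vehicle. GW9662 1 was the lowest animal, and the groups met at vehicle 4, which GW9662 2 equalled and GW9662 4 passed by 0.01. The log2 fold change was -0.16 ± 0.07 (SE; 95% interval -0.32 to 0.01; limma unadjusted p = 0.0598, adjusted p = 0.997), with 3 of 4 pairs lower. The second Eif3i probe set also gave -0.16. Eif3f, a regulatory subunit, read 9.70, 10.32, 10.22 and 10.69 after GW9662 and 10.39, 10.31, 10.33 and 10.39 in vehicle. In this probe set GW9662 animals 1 and 4 were the lowest and the highest of the 8. They lay around 4 vehicle animals that were close together, with SDs of 0.41 for GW9662 and 0.04 for vehicle. The log2 fold change of this set was -0.12 ± 0.17, and 0.05 without GW9662 1. The second Eif3f set, of mean 10.24 against 10.29, read 10.12, 10.17, 10.22 and 10.21 after GW9662 and 10.29, 10.23, 10.26 and 10.39 in vehicle. There the groups did not overlap, and the log2 fold change was -0.11 ± 0.06 (SE; limma over all probe sets, unadjusted p = 0.0796, adjusted p = 0.997). Of the remaining subunits, Eif3e, Eif3h and Eif3l were lower in 4 of 4 pairs, at -0.12, -0.07 and -0.13.

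In the eIF4 group, the cap-binding and helicase factors, 9 of 14 listed genes were measured, 7 lower and 2 higher, with a median of -0.023. With the mean of probe sets and with array weights, 5 were lower and 4 higher. Without vehicle 3, 4 were lower, 5 were higher and the median was 0.011. The counts were the same in the block fit without pair 3 (median 0.01) and without pair 4 (0.0033). Eif4a1, the RNA helicase of the cap complex, read 11.21, 11.20, 11.16 and 11.17 after GW9662 and 11.16, 11.05, 11.35 and 11.22 in vehicle. The GW9662 animals lay within the range of the vehicle animals, and the log2 fold change was -0.01 ± 0.07. Eif4b, which stimulates the helicase, read 8.59, 8.56, 8.69 and 8.77 after GW9662 and 8.73, 8.68, 8.66 and 8.89 in vehicle. Vehicle 4 was the highest animal, and the log2 fold change was -0.09 ± 0.07 (SE; limma unadjusted p = 0.267, adjusted p = 0.997). Eif4e3, a relative of the cap-binding protein, read 8.39, 8.37, 8.15 and 8.16 after GW9662 and 8.40, 8.37, 8.16 and 8.34 in vehicle. In the first 3 pairs its values differed by at most 0.01, and in pair 4 GW9662 was lower by 0.18. Eif4e, which encodes the main cap-binding protein, had a log2 fold change of -0.13 ± 0.13.

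The proteins that hold back eIF4E gave no common direction. Eif4ebp1, the best-known mTORC1 target among them, read 7.19, 7.64, 7.63 and 7.66 after GW9662 and 7.51, 7.52, 7.73 and 7.62 in vehicle. GW9662 1 was far below the other animals of its group, and the log2 fold change of -0.07 ± 0.11 became 0.05 without it. Eif4ebp2 read 8.22, 8.43, 8.44 and 8.32 after GW9662 and 8.28, 8.35, 8.34 and 8.26 in vehicle, again with GW9662 1 lowest, and its log2 fold change was 0.04 ± 0.07. These were 2 of the 4 listed genes.

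Eif5a, the hypusine-bearing factor that helps peptide bond formation at difficult sequences, read 10.83, 10.96, 10.98 and 11.11 after GW9662 and 10.96, 10.95, 11.09 and 11.00 in vehicle. Its log2 fold change was -0.03 ± 0.07, and GW9662 1 was the lowest animal. Eif6, which keeps the large subunit from joining too early, read 8.56, 8.70, 8.76 and 8.63 after GW9662 and 8.49, 8.62, 8.68 and 8.42 in vehicle. GW9662 was the higher animal in 4 of 4 pairs, although the groups overlapped, with a log2 fold change of 0.11 ± 0.08 (SE; limma unadjusted p = 0.178, adjusted p = 0.997). These were 2 of 3 listed genes of eIF5A and eIF6.

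All 7 listed elongation factors were measured, 6 lower and 1 higher, with a median of -0.023. The higher gene was Eef1e1, at 0.06 with a mean signal of 4.20. Among genes brighter than the median 6 of 6 were lower, while with renewed quantile normalisation 4 of 7 were. Eef1a1, the main carrier of aminoacyl-tRNA, read 12.20, 12.23, 12.23 and 12.27 after GW9662 and 12.26, 12.21, 12.29 and 12.32 in vehicle. All 8 animals lay within 0.12 of each other, and the log2 fold change was -0.04 ± 0.06. Eef1a2, the isoform best known from muscle and neurons, read 5.10, 5.18, 5.25 and 5.31 after GW9662 and 5.43, 5.28, 5.30 and 5.43 in vehicle. The groups overlapped, since GW9662 4 lay above vehicle 2 and vehicle 3, yet each GW9662 animal was below its partner of the same day. Its log2 fold change of -0.15 ± 0.07 (SE; 95% interval -0.30 to 0.00) had the smallest p of any factor, 0.0547 unadjusted and 0.997 adjusted in limma, and 0.0689 and 0.966 with the replicate block. Eef1b2, an exchange factor for eEF1A, was also lower in 4 of 4 pairs, by -0.10 ± 0.06. Eef2, the translocase, had a log2 fold change of -0.02 ± 0.05.

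The enzymes that modify elongation factors were 4 of 7 listed genes, all higher by small amounts, with a median of 0.056, or 0.017 with 1 of 4 lower over the mean of probe sets. Eef2k, the kinase that inhibits eEF2, read 7.29, 7.15, 7.07 and 7.34 after GW9662 and 7.13, 7.16, 7.19 and 7.01 in vehicle. The highest and the lowest animals were GW9662 4 and vehicle 4, and the log2 fold change was 0.09 ± 0.08 (SE; limma unadjusted p = 0.264, adjusted p = 0.997). Its other probe sets gave -0.09 and 0.01. Eef1akmt1, a lysine methyltransferase of eEF1A, read 7.21, 7.54, 7.35 and 7.41 after GW9662 and 7.46, 7.22, 7.46 and 7.03 in vehicle. Its pairs went both ways, and its second probe set gave -0.18 against 0.08 for the one used. Eef1akmt2, another methyltransferase of eEF1A, read 5.60, 5.59, 5.58 and 5.50 after GW9662 and 5.68, 5.56, 5.40 and 5.52 in vehicle, with a log2 fold change of 0.03 ± 0.07.

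**Figure D2:**
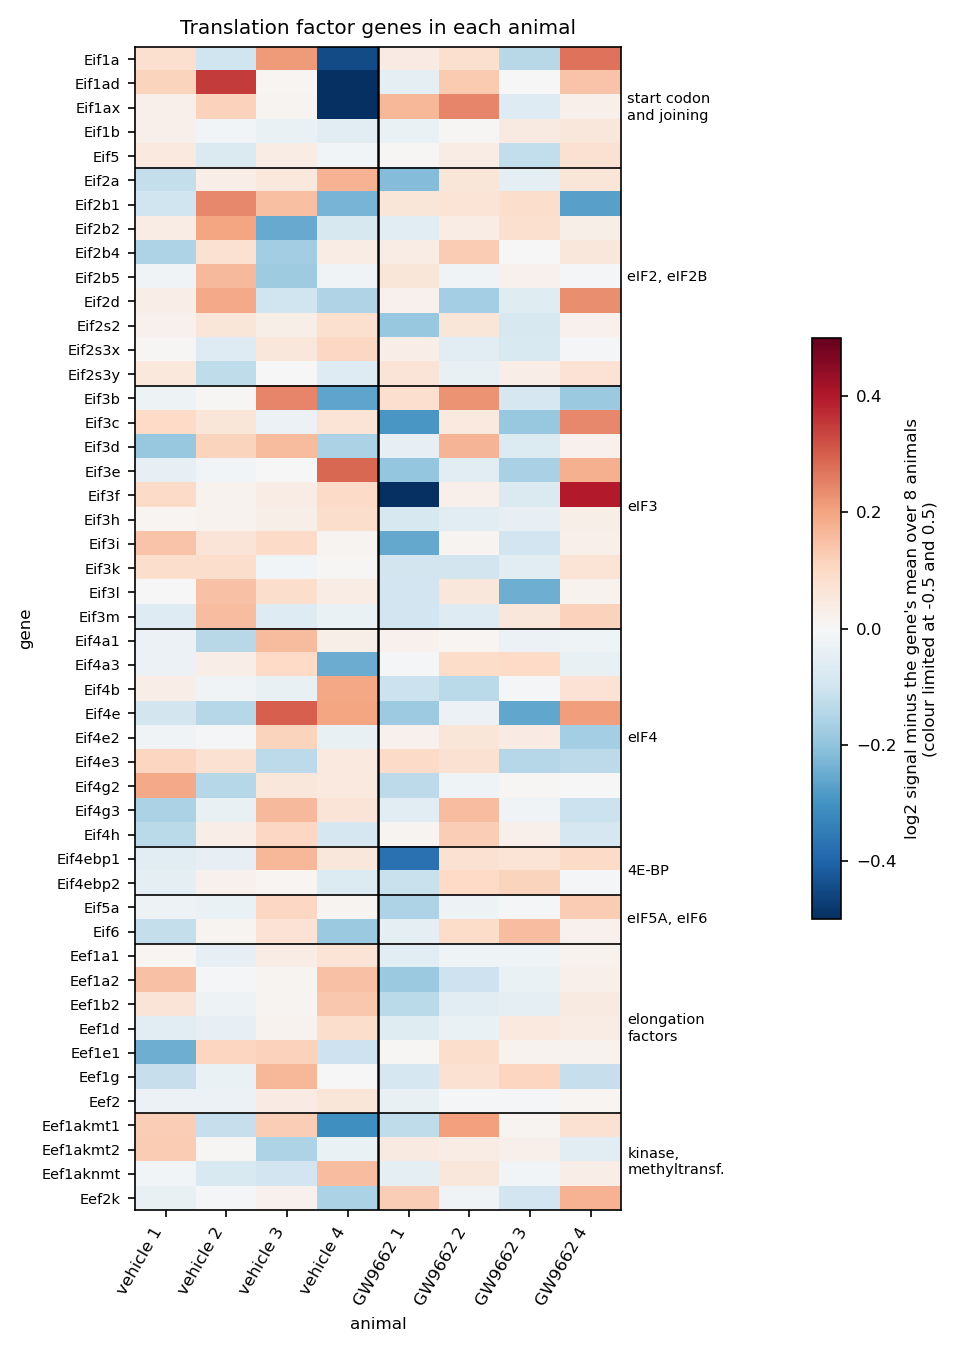
Log2 signal of each of the 48 factor genes (rows, grouped by role) in each animal (columns) minus the gene's mean over the 8 animals; red is above and blue below that mean, with the colour limited at -0.5 and 0.5. The 3 darkest blue cells of vehicle 4 are Eif1a, Eif1ad and Eif1ax, and the darkest of GW9662 1 is Eif3f.

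Most factors were measured by more than 1 probe set. Over all 100 probe sets of the 48 factors, 2 had an unadjusted p under 0.05 in limma, against 3.55% of all probe sets, and 0 had an adjusted p under 0.05. They were the second set of Eif1ax, at 0.31, and the second set of Eef1akmt1, at -0.18. Of 30 factors with several sets, 17 had sets that all shared a sign. Between sets of a gene, the median correlation over the 8 samples was 0.32. Eif4a1 (r = 0.97) and Eif2b2 (r = 0.94) had sets that moved together, whereas those of Eif4a3 (r = -0.58) and Eif4ebp1 (r = -0.41) did not.

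Other genes of the pathway were read from fixed lists, and limma gave an adjusted p under 0.05 to 0 of their genes, with smallest adjusted p = 0.997. In the list of eIF2 kinases and the integrated stress response, 9 of 16 were higher, 7 were lower and the median was 0.005. Eif2ak3, which encodes the eIF2 kinase of endoplasmic reticulum stress, read 6.26, 6.17, 6.05 and 5.91 after GW9662 and 5.58, 6.12, 5.94 and 5.56 in vehicle. It was higher in 4 of 4 pairs though the groups overlapped, with a log2 fold change of 0.30 ± 0.13 (SE; limma unadjusted p = 0.0464, adjusted p = 0.997), and 0.10 over the mean of its probe sets. Eif2ak1, the heme-regulated eIF2 kinase, was at 0.19 ± 0.09 and also higher in 4 of 4 pairs, and at 0.07 over the mean of its probe sets. In limma the replicate block gave an unadjusted p of 0.025 for Eif2ak3 and 0.0385 for Eif2ak1, against 0.0573 for Eif2ak1 without it. Of genes of mTORC1 and kinases of translation, 5 of 12 were higher and 7 lower, and those of smallest p were Larp4 at 0.17 ± 0.09 (0.06 over the mean of its probe sets) and Rps6kb2 at -0.17 ± 0.12.

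Downstream of initiation, 2 of 5 poly(A)-binding genes were higher and 3 lower, with Pabpc1 at -0.16 ± 0.11 (-0.01 over the mean of its probe sets) and Paip2b at -0.12 ± 0.09. Among termination and recycling factors 4 of 8 were on each side of 0, with Abce1 at -0.22 ± 0.18 and Denr at -0.10 ± 0.10 (0.0 over the mean of its probe sets). Of the cytosolic aminoacyl-tRNA synthetases 8 of 19 were higher and 11 lower, with Sars at 0.13 ± 0.07 (0.08 over the mean of its probe sets) and Iars at -0.17 ± 0.11, which turned to 0.04 over the mean of its probe sets. For mitochondrial translation, 4 of 7 were higher and 3 lower, with Gfm2 at 0.07 ± 0.07 (0.0 over the mean of its probe sets). Tsfm, the exchange factor of mitochondrial elongation, read 5.62, 5.85, 5.65 and 5.76 after GW9662 and 5.95, 5.88, 5.92 and 6.30 in vehicle. Its groups did not overlap, in 1 of the 7 genes of its list (background 1.75% of all genes). In the other pathway lists, of 5 to 71 measured genes each, every gene had groups that overlapped. The log2 fold change of Tsfm was -0.29 ± 0.10 (SE; limma unadjusted p = 0.0141, adjusted p = 0.997). Cytosolic ribosomal proteins were lower in 69 of 71 genes (background 51.8%), with a median of -0.095. Their mean differed by -0.11 ± 0.068 (SE that leaves out the pairing, n = 4 per group), with differences in pairs 1 to 4 of -0.24, 0.0011, -0.15 and -0.054. In limma 1 of the 71 had an unadjusted p under 0.05 (background 3.38%), with the replicate block 8 did (11.3%, background 4.83%), and 20 were lower in 4 of 4 pairs (28.2%, background 5.93%). The 71 genes were correlated with each other across the animals and are not separate observations.

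Across the 8 animals the factors did not vary as one block. Over all 1128 pairs of factors, the median Pearson correlation was 0.04, with quartiles of -0.27 and 0.41, against a median of 0.01 over pairs of all genes and 0.03 over pairs of genes brighter than the median. Correlations over 0.7 made up 7.36% of factor pairs, compared with 3.55% of pairs of all genes and 4.88% of pairs of brighter genes. Those under -0.7 made up 2.13%, compared with 3.30% and 3.38%. All these correlations rest on the same 8 arrays and their shared scaling, and are descriptions. Factors of the same role had a median r of 0.17 over 156 pairs, and factors of different roles 0.02.

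Within roles of at least 5 genes, eIF3 subunits (median r = 0.46), elongation factors (0.46) and the start codon group (0.48) were the most alike, while the eIF2 and eIF2B list with Eif2a and Eif2d (-0.08) and the eIF4 group (-0.04) were not. The value of the start codon group rested on vehicle 4, without which it was 0.03. The most alike pair of all 1128 was Eef1a2 and Eef1b2 (r = 0.95), followed by Eif3h with Eef1b2 (0.92). The most opposed was Eif2b2 with Eif4a1 (r = -0.98), whose other probe sets moved with those used. With the mean of the other 47 factors, Eif5a (r = 0.70), Eif3i (0.68) and Eif4ebp1 (0.68) went most closely, and Eef1akmt2 (-0.46), Eif4e3 (-0.40) and Eif2b5 (-0.36) least.

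The factors encoded by TOP mRNAs went up and down with the ribosomal proteins across the 8 animals. The list holds Eef1a1, Eef1b2, Eef1d, Eef1g, Eef2, Eif3e, Eif3f, Eif3h and Eif4b, all measured, and pairs within it had a median r of 0.69 over 36 pairs, against 0.05 over pairs of the other 39 factors. Ribosomal proteins among themselves had a median r of 0.84. Relative to the mean over 8 animals, the TOP factors averaged -0.15, -0.028, -0.023 and 0.075 in GW9662 animals 1 to 4 and -0.0028, -0.018, 0.034 and 0.11 in vehicle animals 1 to 4. The ribosomal proteins averaged -0.19, -0.0098, -0.11 and 0.088, and 0.053, -0.011, 0.037 and 0.14, in the same order. GW9662 1 was the lowest animal and vehicle 4 the highest in both lists, with GW9662 4 second. The other factors averaged -0.049, 0.049, -0.027 and 0.031 after GW9662 and -0.0055, 0.031, 0.040 and -0.069 in vehicle, so that vehicle 4 was their lowest animal.

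**Figure D3:**
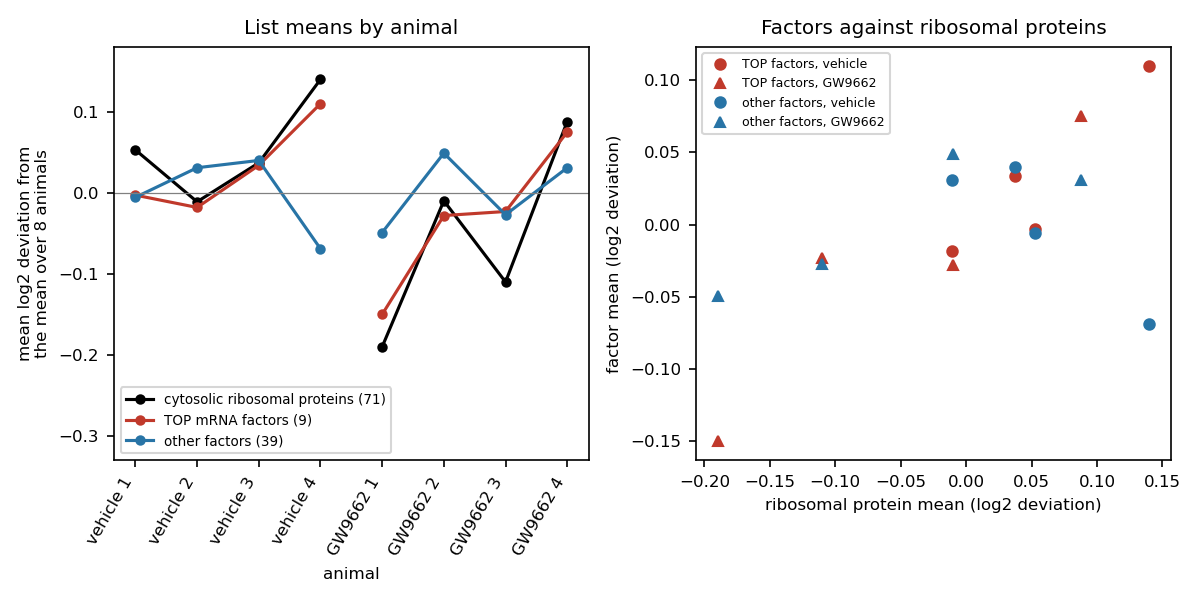
Left, mean log2 deviation from the mean over 8 animals for 71 ribosomal proteins (black), 9 TOP mRNA factors (red) and 39 other factors (blue) in each animal; lines join animals of a group only to guide the eye. Right, the factor means against the ribosomal protein mean, with circles for vehicle and triangles for GW9662: the TOP factors run from -0.15 to 0.11 along the ribosomal mean (r = 0.93), and the other factors do not follow it in vehicle 4, at -0.069.

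Over the 8 animals the TOP factor mean correlated with the ribosomal protein mean at r = 0.93 (Spearman rho = 0.90), and at 0.92 with group means taken out. Leaving out the 2 samples farthest from the ribosomal median, GW9662 1 and vehicle 4, r was 0.74. For the other factors r was 0.17 (rho = 0.05), 0.51 without those 2 samples, 0.77 without vehicle 4 alone and -0.23 without GW9662 1 alone. The relation of the other factors to the ribosomal proteins thus had no settled sign in these 8 animals, and the difference between the lists was not tested. With a shorter ribosomal list of 69 genes, without Rpl36al and Rpl3l, the 2 farthest samples became GW9662 1 and GW9662 3. Leaving those out gave r = 0.94 for the TOP factors and -0.80 for the other factors, while over all 8 animals the values were 0.92 and 0.16.

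Gene by gene, 13 of 48 factors (27.1%) had r over 0.7 with the ribosomal protein mean, and 5.77% of all genes and 12.3% of the brightest 10% of genes did. No factor had r under -0.7. From the TOP list these were 6 of 9: Eef1b2 (r = 0.93), Eif3e and Eif3h (0.90 each), Eef1a1 and Eif3f (0.84 each) and Eif4b (0.73). Eef2 was just under that limit (0.69) and Eef1d lower (0.50, and 0.24 without vehicle 4), while Eef1g, a further subunit of the eEF1 exchange complex, did not follow (-0.09). Outside the list 7 of 39 passed, namely Eif3c (0.87), Eif2s2 (0.86), Eef1a2 (0.83), Eif3i (0.78), Eif2a (0.77), Eif4e (0.76) and Eif5a (0.70). At the other end were Eif2b1 (-0.59), the alpha subunit of eIF2B, Eif1ax (-0.56) and Eif4a3 (-0.55), the helicase of the exon junction complex.

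**Figure D4:**
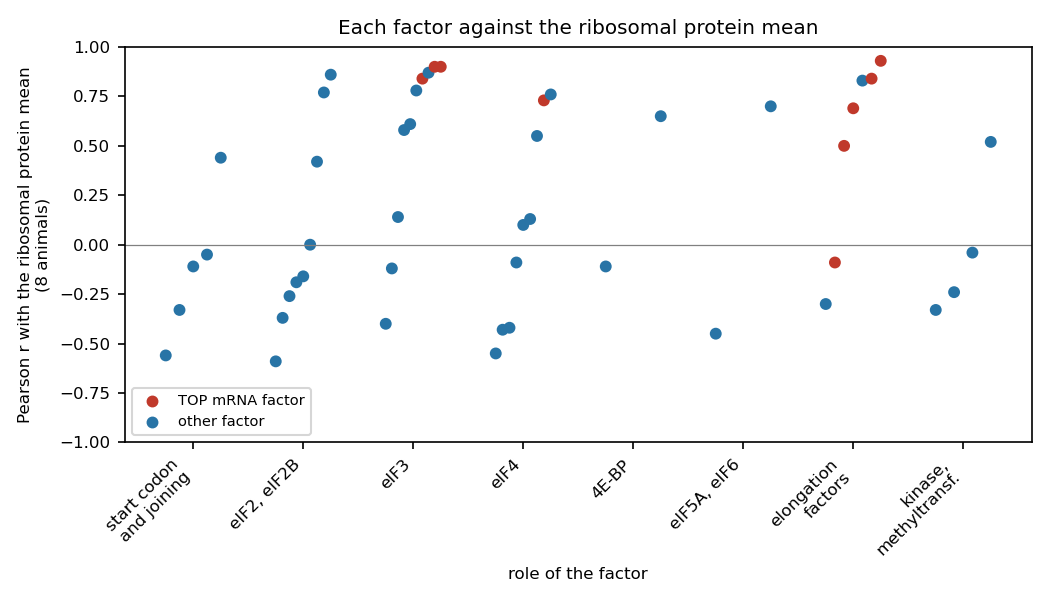
Pearson correlation of each factor gene with the mean of 71 cytosolic ribosomal proteins over 8 animals (vertical axis), by role of the factor (horizontal axis); each point is 1 gene, red for TOP mRNA factors and blue for the others. Of the 9 red points 8 lie above 0, and the exception is Eef1g at -0.09; blue points spread from -0.59 to 0.87.

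After GW9662 the TOP factors were lower in 9 of 9 genes (background 51.8% of all genes), by -0.01 to -0.12, with a median log2 fold change of -0.073. The other 39 had 17 lower and 21 higher with a median of 0.012. With renewed quantile normalisation and with array weights 7 of the 9 were lower, and with the mean of probe sets 8 of 9. None of the 9 TOP factors reached an unadjusted p under 0.05 in limma, the smallest being 0.168 for Eef1b2. The mean over the list differed by -0.063 ± 0.054 (SE that leaves out the pairing, n = 4 per group), with pair differences of -0.15, -0.01, -0.057 and -0.038. Without GW9662 1 that mean was -0.023 and 6 of 9 genes were lower, with Eef1d, Eef1g and Eif3f higher, and without vehicle 4 it was -0.036 with 8 of 9 lower. The 9 genes share the same 8 arrays and were correlated across them, so 9 lower genes are not 9 separate observations.

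The start of the TOP mRNAs is shown because a pyrimidine run there defines the class. The sequences below span 15 bases before to 15 bases after the transcription start annotated by RefSeq (GRCm38.p6), 5′ to 3′ on the coding strand. Capitals mark a C followed by at least 6 pyrimidines anywhere in the window, so a marked run can lie before the start. In Eef1a2 it lies wholly before the annotated start. Of the 9 TOP factors 5 had a matching start sequence, and 2 factors outside the list are given beside them: Eef1a2, which followed the ribosomal proteins, and Eif1ax, which did not.
Eef1a1 (chr9:78481710-78481739, minus strand): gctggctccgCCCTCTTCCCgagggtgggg
Eif3f (chr7:108934400-108934429, plus strand): tctgttctaggCTCTCTCTCTTTCTCggca
Eef1b2 (chr1:63176816-63176845, plus strand): tggacctgcagttccgccggaagtagccga
Eef2 (chr10:81176616-81176645, plus strand): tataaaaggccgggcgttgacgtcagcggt
Eif4b (chr15:102073758-102073787, plus strand): ggtcttcccgtcggacgccgcgccaccccc
Eef1a2 (chr2:181157001-181157030, minus strand): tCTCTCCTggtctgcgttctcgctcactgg
Eif1ax (chrX:159372163-159372192, plus strand): gaggaggaggagggcggggagaagccccgc

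The run was present in 2 of the 5 TOP factors, Eef1a1 (10 bases) and Eif3f (15 bases), across the annotated start in both. The counts given here take a run anywhere in the window, before or after the start. Over all RefSeq promoters of the same window, read on the coding strand, 14.2% held such a run, and over promoters of ribosomal proteins 42.6% did. Among the other factors 8 of 43 promoters held it, with the longest run of all factors, 19 bases, in Eif2b5. Eef1b2, with the highest r of all factors, had none in its window, and neither had Eif3c (r = 0.87) or Eif2s2 (0.86). Eif2b5 (r = -0.37) and Eef1akmt2 (-0.33) held the run without following the ribosomal proteins. A link between the run and r was not tested. A match of letters near an annotated start is a description, and an annotated start can differ from the start used in these cells. Of the 48 factors, 37 had a start sequence, with 48 promoters among them.

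Single animals were the extremes of many factors. GW9662 1 was the lowest of the 8 animals in 16 of 48 factors (33.3%), against 14.0% of all genes, and the highest in 0. Its eIF3 subunits averaged -0.17 and its eIF4E inhibitors -0.24 below the mean over 8 animals. Vehicle 4 was the lowest in 9 factors (18.8%) and the highest in 11 (22.9%), near its shares of 17.1% and 20.7% among all genes. Its start codon group averaged -0.35, while the other 7 animals lay between -0.056 and 0.11. Among cell type markers, the 8 fibroblast genes averaged 9.91 in vehicle 4 and 10.04 to 10.20 in the others, and the 6 endothelial genes averaged 5.26 in vehicle 4 and 5.25 in vehicle 3, in a range of 4.76 to 5.26 over vehicle and 4.79 to 5.11 over GW9662 animals. The pericyte and smooth muscle genes, of which 4 of 6 were measured, averaged 4.54 in both vehicle 4 and vehicle 3, in a range of 4.26 to 4.54 over vehicle and 4.18 to 4.39 over GW9662 animals. In GW9662 1, the melanocyte and mast cell genes averaged 4.31, against 3.96 to 4.20 in the other 7. List averages over the 8 animals ranged from 4.99 to 5.08 for keratinocyte genes, 4.66 to 4.77 for leukocyte genes and 3.53 to 3.77 for 3 of 5 adipocyte genes. Single genes of a list can lie far from its average. The part of these markers in the values of the factors was not tested.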

How the data were processed

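Per the submitters' processing notes, the authors used RMA and the affy package, without versions. The deposited values are log2 signals of 45141 probe sets; log base 2 is an inference from their range, 2.44 to 12.96, and no source used here states it. RMA equalises arrays, which can hide a shift common to all genes, and amplification from few cells can change relative signals. No detection calls were used, and signals of different probe sets are not amounts of transcript. Probe sets were named by the platform annotation: 28898 named 1 gene and were used, 551 that named several were set aside, as were 15692 unnamed here.

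GW9662 and vehicle (n = 4 each) were compared with limma 3.58.1 in R 4.3.3 (lmFit, eBayes, two-sided, dim genes kept). P-values were adjusted by Benjamini-Hochberg across the 17097 genes, with 0.05 as threshold. The procedure was tried on simulated data with independent noise and with changes larger than any estimate of the factors. That trial cannot tell whether changes as small as those of the factors would be found. The members and gene lists (roles, TOP factors, pathway, ribosomal proteins, cell type markers) were chosen with earlier results of these data known. The ribosomal list was widened from 69 to 71 genes, to its fixed wording, after values had been seen. Members given by animal were, in each role, the one of highest mean and the one of smallest p, the 3 of largest SD, the 3 most and least correlated with the other factors, and Eif2s3y. From each pathway list the 2 genes of smallest p were named. Same-numbered animals were taken on the same day, per the labels, and their deviations from group means correlated at 0.203, 0.163, 0.114 and 0.165 over all genes (0.0362, 0.0798, -0.127 and 0.238 over the 48 factors), so the numbers were taken as pairs. The main fit does without them, and they enter the block and the differences by pair. Alternatives were the replicate block, trend and robust variances, brighter genes, the mean of probe sets, quantile normalisation, median centring, array weights, and leaving out each sample or pair. The relation to ribosomal proteins without single samples, with group means out and with the shorter list, and the counts of the TOP factors and of the eIF2 and eIF2B subunits under the alternatives, were added after values had been seen.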

Additional observations from a re-analysis of the deposited data

Results flagged for a closer look

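In 2 of 50 groups of 4 samples checked, 1 sample lay far from the other 3 of its group, by a gap above 0.829 of the group's range; chance flags about 1 in 20 groups. Eif1ax in vehicle 4 read 7.25, with the other vehicle animals between 7.79 and 7.89. Eif4ebp1 in GW9662 1 read 7.19, with the other GW9662 animals between 7.63 and 7.66.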

How the results depend on the processing

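The count of factors with an adjusted p under 0.05 in limma was 0 under every alternative run. Over all genes that count was 0 too, except 1 gene, no factor, without pair 4 in the fit with the replicate block. The replicate block over all 4 pairs gave 0 genes with an adjusted p under 0.05, 0 factors with an unadjusted p under 0.05 and a median of -0.0088. It moved no call of a factor, but raised ribosomal proteins with an unadjusted p under 0.05 from 1 to 8 of 71 and keratinocyte and endothelial markers from 0 to 1 each, and brought Eif2ak1 under that threshold. Factors with an unadjusted p under 0.05 numbered 2 with the mean of probe sets (Eef1a2, Eif1ax), 1 each with renewed quantile normalisation and with array weights (Eif3i), 1 with the block without pair 3 (Eif1ax) and 1 without pair 4 (Eif3i). They numbered 0 to 2 when single samples were left out, 2 of them without GW9662 4 (Eif3i, Eef1a2). The median log2 fold change lay between -0.04 and 0.0096, and 22 to 32 factors were lower, 32 without vehicle 4. The median r between factors was 0.07 with group means out, 0.07 by Spearman, and 0.03 to 0.10 with single samples left out, the highest without vehicle 4.

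Of the 21 named factors, directions turned in 8 genes. They were Eef1akmt1 at -0.045 with the mean of probe sets and -0.013 without pair 4, Eif4a1 at 0.01 with array weights, 0.05 without pair 3 and 0.0033 without pair 4, and Eif1ad at -0.013 with array weights and -0.13 without pair 4. Without pair 1 they were Eif3f at 0.067, Eif5a at 0.0033 and Eif4ebp1 at 0.02, and without pair 3 Eef1akmt2 at -0.023 and Eif2b5 at -0.03. Leaving out single samples turned 8 of 168 values, 1 in each of the same 8 genes, whose ranges were -0.28 to 0.055 for Eif3f, -0.077 to 0.017 for Eif5a, -0.11 to 0.048 for Eif4ebp1, -0.058 to 0.042 for Eif4a1, -0.019 to 0.074 for Eef1akmt2, -0.028 to 0.086 for Eif2b5, -0.0025 to 0.14 for Eef1akmt1 and -0.10 to 0.25 for Eif1ad.

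The TOP factor correlation with the ribosomal mean was 0.74 without the 2 farthest samples and 0.85 to 0.98 with single samples left out. For the other factors it was 0.51 without the 2 farthest samples, -0.23 to 0.77 with single samples left out, and -0.80 with the shorter ribosomal list without its 2 farthest samples. For all factors it was 0.49, 0.02 to 0.86 with single samples left out, and -0.63 with that list without its 2 farthest samples. With 4 animals per group, an estimate smaller than the half-width of its interval, 0.12 to 0.41 on the log2 scale, could not reach an unadjusted p under 0.05 in limma. Larger differences could be missed too. Over all genes the estimates ran from -0.75 to 0.98, and 0 genes had an adjusted p under 0.05.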
